A study of Mus musculus with 32 samples.

Results

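CHD4 peaks appeared after induction of Ikaros at 543 regions where Ikaros was also called, of 15355 regions obtained by merging the 8 CHD4 peak lists of the time course. A region was counted when it overlapped a CHD4 peak in both 2 h lists and in neither 0 h list, and an Ikaros peak in both 2 h lists, with an overlap of at least 1 bp. The members were therefore selected on CHD4 calls at 0 h and 2 h and Ikaros calls at 2 h, and these calls are a description of the selection rather than a result. The Ikaros calls before 2 h, the H3K27ac level, the position relative to genes and the sequence took no part in the choice. The CHD4 calls at 30 min and 1 h were not a condition either, but their peaks were merged in and helped set the extent of the regions. The median width was 1818 bp for members first in both CHD4 lists at 30 min, 1760 bp for 1 h and 1272 bp for 2 h.

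The data are ChIP-seq peak lists from B3, a mouse pre-B cell line, after retroviral transduction of Ikaros carrying an HA tag and the ERt2 domain, whose entry into the nucleus is triggered by 4-hydroxytamoxifen (4-OHT). Every library, including those at 0 h, came from cells carrying this construct, so the comparison is between times of 4-OHT in one transduced line. Cells were untreated (0 h) or received 500 nM 4-OHT for 30 min, 1 h or 2 h, and each time had 2 replicate libraries for each of HA-Ikaros, CHD4 and H3K27ac, with 1 list per library and 24 lists in all. The labels do not say whether the replicates were separate cultures, so the spread between them may be technical. Of the lineage markers, 8 of 8 pre-B marker promoters (such as *Cd79a*, *Pax5* and *Vpreb1*) had an H3K27ac peak in both 0 h lists, against 0 of 5 T cell, 0 of 5 myeloid and 0 of 4 non-blood markers and 1 of 4 erythroid markers (*Klf1*).

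Ikaros (IKZF1) is a zinc finger protein that binds DNA at words built around GGGAA and restrains the proliferation of pre-B cells as they differentiate. CHD4 is the ATP-dependent remodelling subunit of NuRD, a complex that joins nucleosome remodelling to histone deacetylation. H3K27ac is the acetylated form of lysine 27 of histone H3 that marks active promoters and enhancers, and deacetylases of the NuRD type can remove it.

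A few of the regions are shown as sequence because results given further on turn on them: 4 of the 6 with the highest CHD4 ranks at 2 h (*Aes*, *Slc16a5*, *Sla2*, *Ppp1r16b*), a region with strong CHD4 already at 30 min (*Cxcr4*) and the region whose H3K27ac rose (*Tcf12*). Each run is 201 bases of the plus strand of the RefSeq mouse genome (GRCm38, the same build as mm10), centred on the Ikaros 2 h summit, and capitals mark every GGAA or GGGA and their complements TTCC and TCCC. The intervals are chr10:81554075-81554275 (*Aes*), chr11:115463519-115463719 (*Slc16a5*), chr2:156918659-156918859 (*Sla2*), chr1:128591323-128591523 (*Cxcr4*), chr9:72100295-72100495 (*Tcf12*) and chr2:158719011-158719211 (*Ppp1r16b*).
Aes: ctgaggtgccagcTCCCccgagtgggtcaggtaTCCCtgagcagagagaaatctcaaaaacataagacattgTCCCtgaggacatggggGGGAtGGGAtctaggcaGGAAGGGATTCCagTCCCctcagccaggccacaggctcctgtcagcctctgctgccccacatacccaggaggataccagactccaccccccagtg
Slc16a5: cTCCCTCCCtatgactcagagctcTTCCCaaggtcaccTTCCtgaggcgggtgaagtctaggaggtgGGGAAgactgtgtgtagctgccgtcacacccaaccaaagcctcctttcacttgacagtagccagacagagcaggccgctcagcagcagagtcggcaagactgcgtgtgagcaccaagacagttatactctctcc
Sla2: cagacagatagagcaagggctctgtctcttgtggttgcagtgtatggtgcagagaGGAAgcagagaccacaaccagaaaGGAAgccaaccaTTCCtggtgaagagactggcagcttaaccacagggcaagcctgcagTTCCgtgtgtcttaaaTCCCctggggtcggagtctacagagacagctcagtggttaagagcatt
Cxcr4: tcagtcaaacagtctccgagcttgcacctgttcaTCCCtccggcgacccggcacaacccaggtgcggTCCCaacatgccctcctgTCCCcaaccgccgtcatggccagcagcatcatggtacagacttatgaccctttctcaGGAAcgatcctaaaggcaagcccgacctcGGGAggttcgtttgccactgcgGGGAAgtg
Tcf12: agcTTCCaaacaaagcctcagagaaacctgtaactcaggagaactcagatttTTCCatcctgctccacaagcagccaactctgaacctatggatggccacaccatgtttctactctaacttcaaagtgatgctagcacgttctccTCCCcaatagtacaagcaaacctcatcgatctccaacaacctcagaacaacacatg
Ppp1r16b: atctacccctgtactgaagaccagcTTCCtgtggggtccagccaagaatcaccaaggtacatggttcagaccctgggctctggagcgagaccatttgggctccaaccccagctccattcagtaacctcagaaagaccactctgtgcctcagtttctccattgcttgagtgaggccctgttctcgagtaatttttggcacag

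The window at *Aes* held 9 of these core words, with GGGA and GGAA counted separately where they overlap, and those at *Slc16a5* and *Cxcr4* held 7 each. *Sla2* held 5, *Tcf12* 3 and *Ppp1r16b* 1, and the window at *Stk4*, which also ranked among the highest for CHD4 and is not shown, held 2. Regions with high CHD4 thus included windows with many and with few core words.

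The calls at the times between were followed for both factors, CHD4 at 0 h being barred by the rule. Ikaros peaks were present at 46.0% and 51.6% of the 543 regions in the 2 lists at 0 h, 70.3% and 43.3% at 30 min, and 84.0% and 90.4% at 1 h. CHD4 peaks were present at 33.9% and 25.6% of them at 30 min and 56.2% and 46.2% at 1 h. The replicates lay within 9.94 percentage points of each other except for Ikaros at 30 min, where the second list is the shortest of the Ikaros lists with 5373 peaks. With 2 lists against 2, an exact permutation test cannot go below p = 0.333, so the course is given as values.

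**Figure D1:**
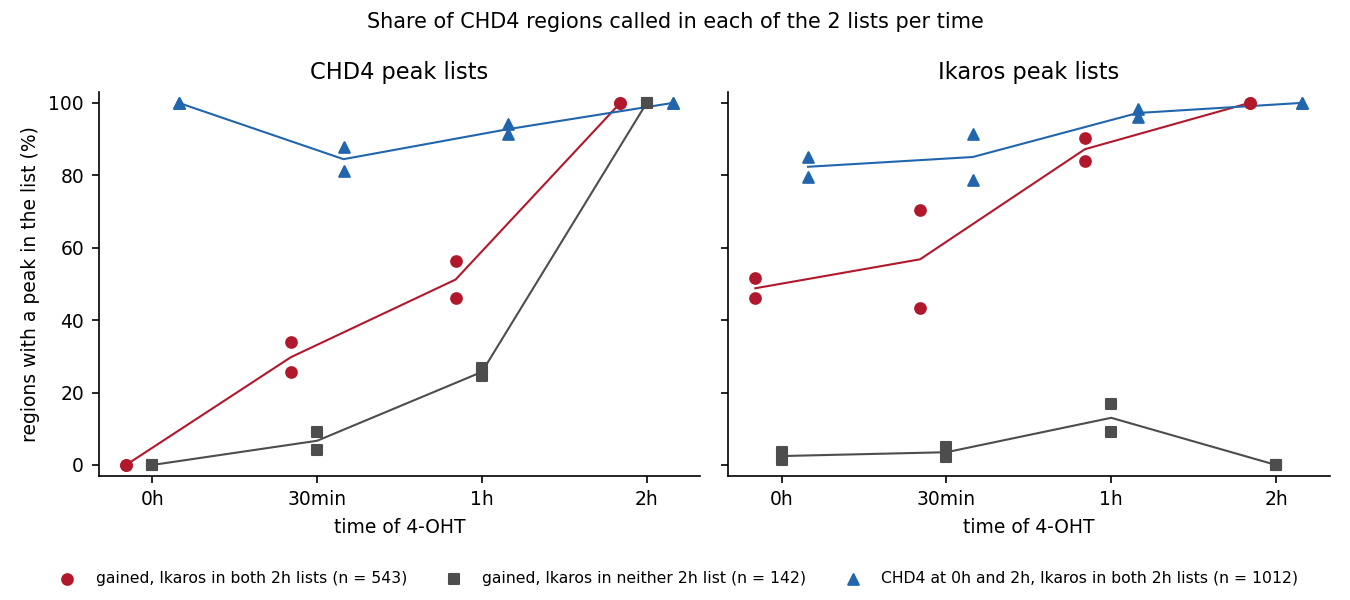
Percentage of regions with a peak in each CHD4 list (left) and each Ikaros list (right) against time of 4-OHT; each point is 1 list and lines join the means of the 2 lists. At the gained regions with Ikaros (red, n = 543) CHD4 calls passed through 33.9% and 25.6% at 30 min, whereas gained regions without Ikaros (grey, n = 142) stood at 9.15% and 4.23%. The grey set also had lower CHD4 ranks at 2 h, and the sets were not tested against each other. The values at 0 h and 2 h for CHD4 and at 2 h for Ikaros are set by the rule.

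Taking the first time at which both lists agreed, CHD4 appeared at 30 min at 75 regions (13.8%), at 1 h at a further 130 (23.9%) and at 2 h at 338 (62.2%). With all CHD4 and all Ikaros lists cut to equal length, CHD4 was in both 30 min lists at 31.7% of the regions then meeting the rule and in both 1 h lists at 37.6%. Of the 75, 43 were called in both 1 h lists as well and 8 in neither, so some of the early calls were not repeated at 1 h. Including regions first called at 30 min, the 173 members in both 1 h lists made up 31.9% of the members, against 58.2% of all 3015 CHD4 regions called in both 2 h lists. For 30 min the corresponding share over all such regions was 41.9%, a background that includes regions with CHD4 at 0 h, which the rule leaves out. At the 142 regions that gained CHD4 with Ikaros in neither 2 h list, CHD4 was called in both 30 min lists at 2 (1.41%) and first in both 1 h lists at 20 (14.1%). The 142 also had weaker CHD4 calls at 2 h, at a median rank of 39.5% and 44.6% of the list against 56.1% and 57.3% for the members. The difference between these sets was not tested, because regions of the same libraries are not replicates.

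Ikaros was called in both lists at 0 h at 199 regions (36.6%), first at 30 min at 78 (14.4%), at 1 h at 168 (30.9%) and at 2 h at 98 (18.0%). In all, 36.6%, 38.1% and 79.7% of the members had Ikaros in both lists at 0 h, 30 min and 1 h. Over the 6918 merged CHD4 regions with Ikaros in both 2 h lists, counted in the same way, the shares were 50.1%, 44.2% and 81.3%, above the members at each time. Ikaros was in neither 0 h list at 212 members (39.0%), against 28.0% of these CHD4 regions, and in all 8 lists at 128 members (23.6%), against 31.3%. Over the 8829 merged Ikaros regions in both 2 h lists, which are another unit than CHD4 regions, the shares were 45.3%, 37.7% and 76.0% at the 3 times, 32.4% in neither 0 h list and 26.1% in all 8. The members' shares moved with the calls used. At −log10 q of at least 3 they were 58.3% at 0 h and 70.8% at 30 min over the 48 regions left, and the 30 min share was 70.3% without replicate 2. No background was computed under these settings.

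Setting the first calls side by side, Ikaros came before CHD4 at 374 regions (68.9%), in the same time point at 138 (25.4%) and after it at 31 (5.71%). The largest single combination was Ikaros first at 1 h with CHD4 first at 2 h, at 117 regions, followed by Ikaros at 0 h with CHD4 at 2 h, at 104. This order rests partly on the rule, which excludes CHD4 but not Ikaros at 0 h, and on lists called with different settings, narrow for Ikaros and broad for CHD4. At 30 min and 1 h the CHD4 lists held 3369 to 5446 peaks and the Ikaros lists 5373 to 14874. The median lower −log10 q of the members at 2 h was 1.47 for CHD4 and 5.84 for Ikaros. The order was not tested, and no background for it was computed. Among the 344 regions without Ikaros in both 0 h lists the counts were 175 before, 138 together and 31 after.

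**Figure D2:**
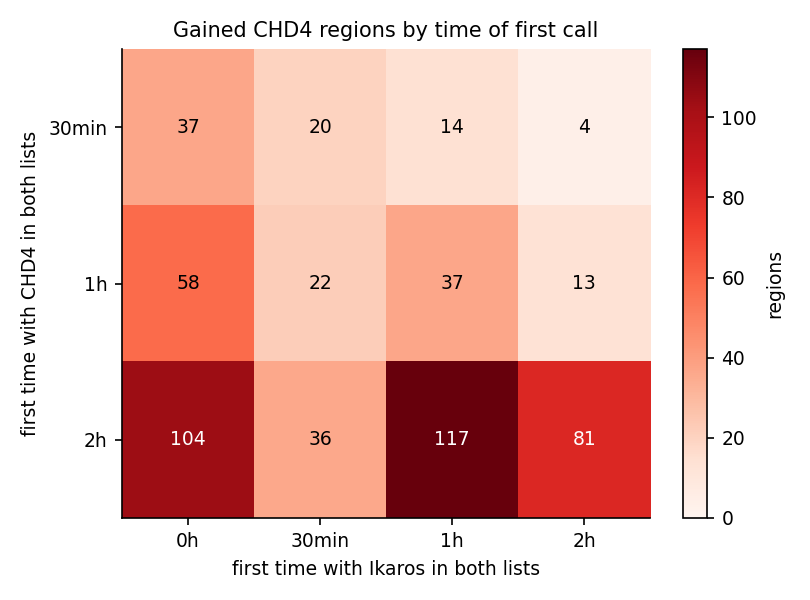
Number of gained regions for each pair of first times, with the first time in both Ikaros lists across and the first time in both CHD4 lists down; darker cells hold more regions. The bottom row (CHD4 first at 2 h) holds 104, 36, 117 and 81 regions, and the right column (Ikaros first at 2 h) holds only 4 regions with CHD4 from 30 min.

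The selection sat close to the peak threshold for CHD4. The lower of the CHD4 −log10 q values at 2 h had a median of 1.47 over the members and a minimum of 1.02, and 454 of 543 were under 2 in a list, whereas the lower Ikaros −log10 q had a median of 5.84. Just outside, 1804 regions met every condition but had CHD4 in one 2 h list (1469 of them the longer, replicate 2), and 912 were excluded for CHD4 in one 0 h list (832 of them replicate 2, with a median −log10 q of 1.66 there). The CHD4 lists held 2488 and 6000 peaks at 0 h and 5523 and 9593 at 2 h, so list length moved with the gain. With all CHD4 lists cut to the same length, and all Ikaros lists likewise, 101 regions met the rule, and with −log10 q of at least 3 for both factors 48 did.

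CHD4 enrichment at the members was modest. The median fold over background was 3.16 and 3.21 at 2 h, at a median rank of 56.1% and 57.3% within the list, and 3.26 and 3.37 at the 1012 regions with CHD4 in all 0 h and 2 h lists and Ikaros in both 2 h lists. Members called at 30 min had a median fold of 3.23 and 3.42 there. A value is given only for lists in which a peak was called, since a region without a peak has no listed level.

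The highest combined CHD4 ranks at 2 h belonged to regions near *Ppp1r16b*, *Aes*, *Slc16a5*, *Stk4*, *Sla2* and *Erbin*, which were chosen by that rank. *Aes* encodes a Groucho-family corepressor of the TLE type, and its region (chr10:81553362-81555071) lies 5319 bp upstream of the start site. There CHD4 was called in all 6 lists after 4-OHT, with folds of 3.47 and 3.59 at 30 min, 3.57 and 3.83 at 1 h and 3.79 and 4.03 at 2 h. Ikaros went from unlisted at 0 h to 4.02 and 6.06, 6.82 and 7.72, and 6.77 and 8.96 at the same times. Both factors were thus called together from 30 min, and H3K27ac was listed there in 1 of 8 lists only (2.95 at 30 min).

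*Sla2*, which encodes an adaptor that dampens antigen receptor signalling, is the nearest gene of a region 31567 bp upstream. Ikaros was already called there at 0 h at 8.83 and 6.06 fold, reached 13.8 and 17.1 at 30 min, and stood at 9.09 and 15.4 at 2 h. CHD4 was listed from 30 min (4.13 and 4.22) and at 2 h (3.65 and 4.33). H3K27ac was low in every list that held it, between 3.19 and 5.89 fold, and was not listed in the second 2 h library.

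*Stk4* (the Hippo kinase MST1) showed both factors in both lists at 30 min, with CHD4 at 2.99 and 3.50 fold and Ikaros at 4.85 and 5.03. *Ppp1r16b*, a regulatory subunit of protein phosphatase 1, reached CHD4 folds of 4.38 and 3.80 at 2 h but was listed in only the second of the 30 min and 1 h lists. *Slc16a5*, a monocarboxylate transporter, followed the same pattern, with CHD4 at 3.76 and 4.00 at 2 h. *Erbin*, a scaffold protein of epithelial and signalling junctions, carried its region over the start site, with Ikaros listed throughout (6.10 and 7.27 at 0 h, 5.48 and 8.58 at 2 h) and CHD4 at 3.80 and 3.78 at 2 h. None of *Ppp1r16b*, *Slc16a5*, *Stk4* and *Erbin* passed the test for H3K27ac at 2 h, with log2 differences of 0.34, -0.06, 0.07 and 0.09.

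Among regions with CHD4 in both 30 min lists, the strongest there lay near *Sla2*, *Il12a*, *Cxcr4* and *Apbb1ip*. At *Cxcr4*, the chemokine receptor that holds B cell precursors in the marrow, the region (chr1:128590649-128592999) is in the intron 867 bp from the start site. CHD4 stood at 3.71 and 4.32 at 30 min, 3.62 and 3.41 at 1 h and 3.25 and 3.34 at 2 h, and Ikaros at 5.82 and 4.33 at 0 h, 7.80 and 6.71 at 30 min, and 9.72 and 7.25 at 2 h. The region upstream of *Il12a*, a subunit of interleukin 12, had CHD4 at 4.10 and 4.17 at 30 min and 3.39 and 3.22 at 2 h, with Ikaros going from 2.61 and 3.36 at 0 h to 6.49 and 9.65. CHD4 was thus listed at both in all 6 libraries after 4-OHT. These regions were picked for their 30 min CHD4 rank, so their 30 min folds are not compared with those at 2 h. *Apbb1ip*, an adaptor of integrin activation, had CHD4 in both 30 min lists (3.91 and 3.69) although Ikaros was in both lists only from 1 h.

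Most of the gained regions lay at promoters. A total of 364 of 543 (67.0%, 95% exact binomial interval 62.9% to 71.0%, counting error only) lay within 1 kb of an annotated transcription start site (TSS), against 41.9% of all 15355 CHD4 regions, 40.7% of the 1012 regions with CHD4 in all 0 h and 2 h lists and Ikaros in both 2 h lists and 34.5% of the 142 gained without Ikaros. The median width was 1450 bp for the members, 822 bp for all CHD4 regions and 2902 bp for those 1012, and no share matched for width was computed. By the Ikaros summit itself, 286 members (52.7%) were within 1 kb of a protein-coding TSS, against 30.4% of all CHD4 regions. The share was 20.3% for the 1012 and 21.1% for the 142 gained without Ikaros. The centre of the region was used where Ikaros was not called at 2 h. The summit lay outside protein-coding gene bodies at 260 members (47.9%), which includes summits just upstream of a TSS. It lay in an intron at 167 (30.8%), in an untranslated region at 86 (15.8%), in a coding exon at 16 (2.95%) and in another exon at 14 (2.58%). Over all CHD4 regions, read in the same way, the shares were 48.7%, 38.3%, 8.62%, 2.41% and 1.97%. The higher share of promoters was not tested, and it fell to 39.6% for the 48 regions left at −log10 q of at least 3 and to 55.4% for the 101 left with lists of equal length.

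The members had 513 nearest protein-coding genes. Only 25 genes had more than one member, and *Akap13* had 4 and *Akap12*, *Pde4d* and *Sgms1* had 3 each, genes named here after their counts were seen. *Akap13* and *Akap12* anchor protein kinase A, and *Pde4d* degrades cyclic AMP. The 4 *Akap13* regions spread over the gene, from 224 bp upstream of a start site into introns and a coding exon, and CHD4 was first in both lists at 2 h in 3 of them and at 1 h in the other. The 3 *Akap12* regions lay 12024 and 4805 bp upstream and 483 bp inside the gene.

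Promoter and distal members were set side by side for their Ikaros and CHD4 calls. Ikaros was in both 0 h lists at 156 of 364 promoter members (42.9%) and at 43 of 179 distal ones (24.0%), and in neither at 32.7% and 52.0%. CHD4 was in both 30 min lists at 11.0% of promoter and 19.6% of distal members, and in both 1 h lists at 30.5% and 34.6%. CHD4 folds at 2 h were close, with median CHD4 folds of 3.17 and 3.19 at promoters and 3.16 and 3.22 at distal regions. The 2 h folds come from lists that the rule used. These splits within one set of libraries were not tested. Matching shares for promoter and distal sites of all CHD4 regions were not computed, so the splits cannot be called particular to the members.

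Members were also split by their Ikaros calls before induction. This split was not tested, and no matching shares over all CHD4 regions were computed. Where Ikaros was in both 0 h lists (199 regions), 78.4% were promoters and CHD4 was in both 30 min lists at 18.6%. Where Ikaros was in neither (212 regions), 56.1% were promoters and CHD4 was in both 30 min lists at 10.4%. The median Ikaros rank at 2 h was 84.6% and 81.5% of the list in the first group and 62.3% and 58.1% in the second. The median CHD4 rank at 2 h was 55.8% and 57.7% against 55.5% and 57.6%. Both ranks come from 2 h lists that the rule used, and most members sat near the CHD4 threshold, so they are a description only.

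Almost all gained regions carried H3K27ac throughout the course. An H3K27ac peak overlapped 511 of 543 members in all 8 lists, 26 members in 1 to 7 lists and 6 in none. The 511 are 94.1% of the members, where the mark was in all 8 lists at 68.1% of all CHD4 regions, 97.1% of the 1012 regions with CHD4 at 0 h and 2 h and Ikaros at 2 h and 62.7% of those gained without Ikaros. At 0 members was the mark in both 0 h lists and neither 2 h list, and at 2 it was in neither 0 h list and both 2 h lists, patterns found at 1.63% and 1.55% of all CHD4 regions. Over the 511, the median rank of the H3K27ac fold within its list was 83.7% and 80.1% at 0 h, 86.8% and 82.8% at 30 min, 85.9% and 82.6% at 1 h and 89.5% and 85.2% at 2 h. The 10463 CHD4 regions with the mark in all 8 lists stood at 78.2% and 74.2% at 0 h and 83.5% and 77.0% at 2 h. The H3K27ac lists held 25095 and 21468 peaks at 0 h and 33664 and 25141 at 2 h, and a rank moves with the number of weaker peaks in its list, so the ranks are not compared between times.

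H3K27ac was tested with limma on the log2 fold of 14715 H3K27ac regions called in all 8 lists, each library centred on its median, with Benjamini-Hochberg adjustment over all of them. The 513 members with such a region fell on 510 of them. At 2 h, 1 was lower and 1 higher than at 0 h at an adjusted p under 0.05, where 0.224% of all regions tested were lower and 0.183% higher. At 1 h 0 were lower and 0 higher, against 0.190% and 0.0408% of all regions, and at 30 min 0 and 0, against 0.00680% and 0%. At an unadjusted p under 0.05 the members gave 44 regions at 30 min, 72 at 1 h and 91 at 2 h. These were 8.63%, 14.1% and 17.8% of the members' regions, against 9.47%, 13.7% and 15.9% of all regions tested. Pooled over directions, the counts at members were near the background at every time. By direction, 15 were lower and 29 higher at 30 min, and 17 and 55 at 1 h. Over all regions these counts were 844 and 549, and 938 and 1077, so the members leaned to higher values, which was not tested.

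The median log2 difference from 0 h at the members was 0.07 at 30 min, 0.11 at 1 h and 0.18 at 2 h, beside 0.02, 0.06 and 0.05 over all regions tested, with a median standard error of 0.29 for a single region. Without centring the 2 h median was -0.29 at the members and -0.41 over all regions, so the sign depends on the scaling and only the position relative to other regions can be read from these lists. The regions with CHD4 at 0 h and 2 h and Ikaros at 2 h had medians of -0.10, -0.10 and -0.06, and regions gained without Ikaros 0.07, 0.20 and 0.23. Of the 91 members with an unadjusted p under 0.05 at 2 h, 74 had a positive and 17 a negative difference, and over all regions 1374 and 973. The sets were not tested against each other.

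**Figure D3:**
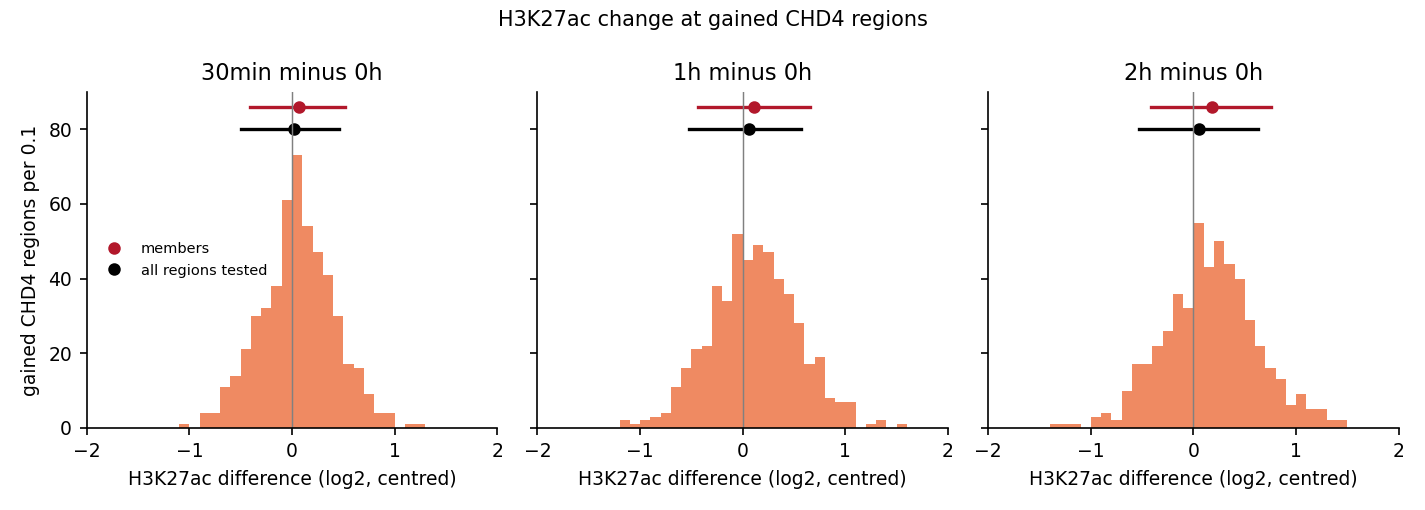
Histograms of the H3K27ac difference from 0 h (log2 fold, centred by library, in steps of 0.1) at the gained regions for 30 min, 1 h and 2 h; above them the dot and bar give the median and the range from the 10th to the 90th percentile for the members (red) and for all 14715 regions tested (black). The members' median is 0.18 at 2 h against 0.05 over all regions, and the ranges overlap over most of their length.

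Distal and promoter members had different medians at 2 h, 0.33 over 156 regions and 0.11 over 355, beside 0.05 and 0.00 at the distal and promoter sites of all CHD4 regions. The regions gained without Ikaros had 0.34 (56 regions) and 0.07 (48), values close to those of the members. The H3K27ac difference was negative at 26.3% of distal and 36.1% of promoter members, beside 46.4% and 49.7% over all CHD4 regions, and at 14 of 56 distal and 19 of 48 promoter regions gained without Ikaros. Members with Ikaros in neither 0 h list had a median of 0.27 and those with Ikaros in both 0.09. By the first CHD4 call the medians were close, 0.18 for 30 min, 0.19 for 1 h and 0.17 for 2 h.

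*Ints3*, a subunit of the Integrator complex that processes nascent transcripts, was the member whose H3K27ac fell. Its region (chr3:90433241-90435476) covers the start site, and H3K27ac stood at 26.8 and 22.4 fold at 0 h, 27.6 and 21.4 at 30 min, 17.2 and 11.8 at 1 h and 8.83 and 5.46 at 2 h. The 2 h libraries were both below every earlier one, and the log2 difference from 0 h was -1.36 (SE 0.272, limma adjusted p = 0.0480, n = 2 per time). It did not pass with the replicate number as a block in the fit (limma adjusted p = 0.0546). Nor did it pass when the H3K27ac peak over the CHD4 region was read in place of the merged region (limma adjusted p = 0.0539). Ikaros was called there at 6.90 and 8.90 at 0 h and 6.49 and 9.96 at 2 h, and CHD4 at 3.46 and 3.24 at 2 h.

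*Tcf12*, which encodes the E protein HEB of early lymphoid development, was the member whose H3K27ac rose. The region (chr9:72098518-72101470) is in an intron 9329 bp from the nearest start site, and H3K27ac stood at 5.34 and 5.32 fold at 0 h, 12.6 and 6.07 at 30 min, 8.10 and 6.45 at 1 h and 11.8 and 10.2 at 2 h. The 2 h libraries were above both 0 h libraries, and the log2 difference was 1.50 (SE 0.283, limma adjusted p = 0.0355, n = 2 per time). Ikaros was unlisted at 0 h and 30 min, listed at 5.10 in replicate 1 alone at 1 h, and at 3.98 and 4.16 at 2 h. CHD4 was listed in replicate 1 alone at 30 min (3.21) and 1 h (3.62), and stood at 2.87 and 3.43 at 2 h. Neither call passed when any one of the 8 H3K27ac libraries was left out, with adjusted p between 0.0565 and 0.213.

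A merged H3K27ac region can be wider than the CHD4 region, so the test was repeated, chosen after seeing the data, on the highest H3K27ac peak at each CHD4 region with the mark in all 8 lists. Of 511 members, 4 then had a higher value at 2 h (*Nfe2l2*, *Tcf12*, *Ugp2* and *Atxn10*) and 0 a lower one, against 0.468% and 0.363% of 10463 CHD4 regions. The count includes *Nfe2l2*, which was read at different summits before and after induction, and the background was not checked for such cases. *Nfe2l2* encodes NRF2, the regulator of antioxidant genes, and its member (chr2:75689131-75690812) is intronic. The value read there was 13.3 and 8.31 at 0 h, 47.4 and 23.5 at 30 min, 30.3 and 33.9 at 1 h and 29.9 and 29.1 at 2 h, with a log2 difference of 1.99 at 2 h (SE 0.306, limma adjusted p = 0.0248, n = 2 per time). These values were not read at the same place. At 0 h the peak over the CHD4 region was 2825 and 3459 bp wide with its summit inside the region, whereas in the 6 later libraries one peak of 9271 to 11564 bp took in the region and had its summit 5805 to 6361 bp away from it. The difference at *Nfe2l2* is therefore one between 2 summits and does not measure the change of H3K27ac at the CHD4 region, and over the whole merged H3K27ac region it was 0.42 (limma adjusted p = 0.516). At *Tcf12*, *Ugp2* and *Atxn10* the summit lay inside the CHD4 region in all 8 libraries. CHD4 and Ikaros were each first in both lists at 30 min at *Nfe2l2*.

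**Figure D4:**
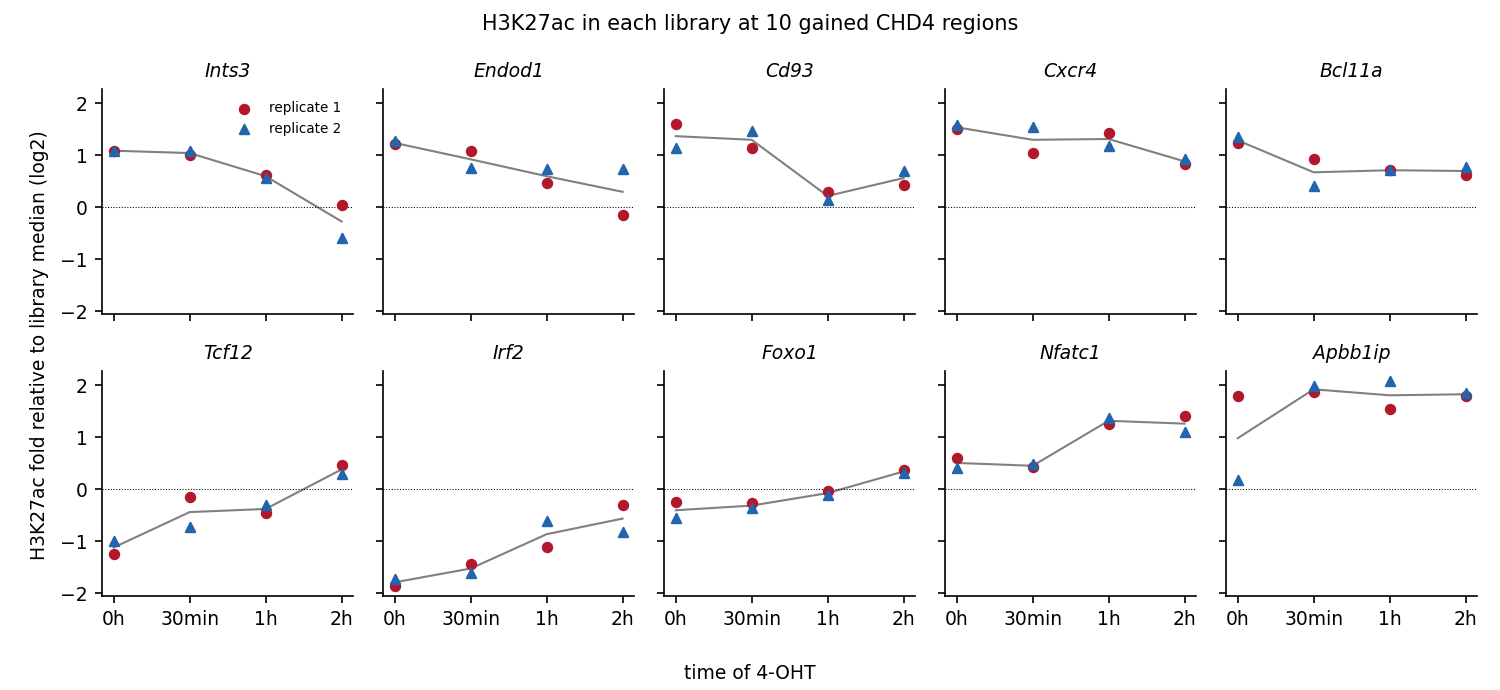
H3K27ac fold relative to the median of its library (log2, 0 being the median region) against time of 4-OHT at the H3K27ac region of 10 gained CHD4 regions; circles are replicate 1, triangles replicate 2 and lines join the means. *Ints3* goes from 1.09 and 1.09 at 0 h to 0.05 and -0.59 at 2 h, and *Tcf12* from -1.24 and -0.99 to 0.47 and 0.30.

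Gene lists were compiled for pre-B biology with earlier results of these data known, and a member was given to its nearest protein-coding gene within 100 kb. By this assignment 2.22% of 21842 protein-coding genes had a member, or 24.8% of the 1959 genes nearest to a CHD4 region of both 2 h lists. Of 43 B lineage transcription factors 7 had a member, namely *Bcl11a*, *Cux1*, *Foxo1*, *Irf2*, *Runx3*, *Sox4* and *Tcf12*, with 9 members in all, 8 of them tested for H3K27ac. CHD4 regions of both 2 h lists were nearest to 30 of the 43, the set to which the 24.8% applies. Only *Tcf12* passed. At *Irf2*, an interferon regulatory factor, the H3K27ac region stood at 3.50 and 3.19 fold at 0 h and 6.92 and 4.68 at 2 h (log2 difference 1.23, limma adjusted p = 0.0793). At *Foxo1*, a driver of pre-B gene expression, it stood at 10.6 and 7.20 at 0 h and 11.0 and 10.3 at 2 h (0.75, limma adjusted p = 0.170), so that neither gene passed. Folds of single regions are given as listed throughout, whereas the log2 differences were taken after centring each library. Without centring, the median 2 h difference over all regions tested was -0.41.

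*Bcl11a*, a zinc finger factor needed for early B cells, also belongs to a list of 17 genes taken from those the study named for fast repression, which is not the whole of that class. *Endod1* was the other of the 17 with a member, and 11 had a CHD4 region of both 2 h lists. At *Bcl11a* H3K27ac stood at 29.5 and 26.9 at 0 h, 26.5 and 13.4 at 30 min, 18.3 and 13.0 at 1 h and 13.0 and 14.2 at 2 h. At *Endod1* it stood at 29.1 and 25.5 at 0 h and 7.72 and 13.8 at 2 h. Both 2 h libraries were below both 0 h libraries at each gene, and listed folds fell at 2 h over all regions too. After centring, *Bcl11a* went from 1.23 and 1.35 to 0.62 and 0.78, and *Endod1* from 1.21 and 1.27 to -0.14 and 0.74. The log2 differences of -0.59 and -0.94 did not pass (limma adjusted p = 0.288 and 0.148). *Endod1* passed only without centring (-1.40, limma adjusted p = 0.0471), where the median over all regions was -0.41. Ikaros was in both 0 h lists at both genes, at 3.24 and 4.93 at *Bcl11a*, and CHD4 was first in both lists at 2 h there and at 1 h at *Endod1*. The study chose this list on samples of the same cells, so its direction is not independent.

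Of 40 genes of pre-B and B cell receptor signalling 5 had a member (*Bank1*, *Fyn*, *Inpp5d*, *Nfatc1* and *Pik3r1*), beside 21 with a CHD4 region of both 2 h lists, and 0 passed for H3K27ac. At *Nfatc1*, a calcium-dependent transcription factor, H3K27ac stood at 19.1 and 14.1 at 0 h and 22.7 and 17.8 at 2 h (log2 difference 0.76, limma adjusted p = 0.157), and CHD4 and Ikaros were both called from 30 min. At the promoter of *Pik3r1*, the regulatory subunit of PI3 kinase, Ikaros was in every list (8.40 and 5.44 at 0 h, 7.53 and 9.14 at 2 h) and CHD4 in all 6 after 4-OHT, with H3K27ac at 25.9 and 12.8 at 0 h and 8.06 and 10.2 at 2 h (-0.55, limma adjusted p = 0.392). The direction of the H3K27ac value thus differed between 2 genes of one pathway that both had CHD4 at 30 min, and neither passed.

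Of 38 adhesion and migration genes, 37 of them in the annotation, 5 had a member (*Cd93*, *Coro1a*, *Cxcr4*, *Icam2* and *Itgb7*) and 20 a CHD4 region of both 2 h lists. Of the 5 members 4 were tested and 0 passed. *Cd93*, a receptor of early B cell precursors, had H3K27ac at 38.1 and 23.2 at 0 h, 30.4 and 27.7 at 30 min, 13.5 and 8.83 at 1 h and 11.5 and 13.4 at 2 h. Its difference was -1.15 at 1 h and -0.80 at 2 h (limma adjusted p = 0.0994 and 0.162), and all libraries from 1 h on were below all earlier ones. *Cxcr4* went from 35.5 and 31.4 at 0 h to 15.1 and 15.8 at 2 h (-0.65, limma adjusted p = 0.236). *Coro1a*, an actin regulator, stood at 22.0 and 17.1 at 0 h and 21.8 and 22.2 at 2 h (0.65, limma adjusted p = 0.283).

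Of 40 cell cycle genes 4 had a member (*Aurkb*, *Ccnd3*, *Ccne2* and *Cdkn2a*), with 5 members, of which 4 were tested and 0 passed, and 13 had a CHD4 region of both 2 h lists. The 7 of 30, 5 of 21, 5 of 20 and 4 of 13 in these lists stand beside the 24.8% over all genes with such a region, and none was tested. *Ccnd3* encodes the D-type cyclin that pre-B cells need to divide. It held one member over a start site and another 2893 bp inside the gene from another start site, and Ikaros was in both 0 h lists at each. Over the start-site member H3K27ac went from 23.0 and 19.8 at 0 h to 11.8 and 10.2 at 2 h (-0.50, limma adjusted p = 0.349). At the intragenic member the peak over the CHD4 region stood at 9.68 and 7.68 at 0 h and 6.72 and 4.10 at 2 h (log2 difference -0.22), whereas the highest peak of the wider H3K27ac region gave 0.70 (limma adjusted p = 0.230), so the sign there depended on which peak was read.

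No member was nearest to any of the 35 cytokine receptor and JAK-STAT genes or the 26 apoptosis genes, of which 11 and 6 had a CHD4 region of both 2 h lists. These counts stand beside the same 24.8% over all genes with such a region, and neither was tested. One of 15 NuRD subunit genes, 3 of them with a CHD4 region of both 2 h lists, had a member, *Gatad2a*, with CHD4 and Ikaros in both 30 min lists (3.37 and 3.44, and 4.52 and 4.36 fold) and an H3K27ac difference of -0.29 at 2 h (limma adjusted p = 0.653). One of 35 genes of glucose and nutrient use, 7 of them with such a region, had a member, *Slc16a5*. Over all 485 members within 100 kb of a gene that were tested, the median difference at 2 h was 0.17 and 2 passed.

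The DNA under the Ikaros summits held more core words than its flanks and was richer in GC. Over the 543 windows of 201 bases, words occurred at 3.10 per 100 bp (SD 1.52 over windows), against 2.31 at 300 to 500 bp from the summit, with a GC content of 55.5%, 5.42 percentage points above that of the flanks, and 1 window held none. All 8829 Ikaros regions of the 2 h lists had 3.06, and the regions with CHD4 at 0 h and 2 h and Ikaros at 2 h had 3.05, so the 3 densities were close. Members with Ikaros in both 0 h lists had 3.72 and those with Ikaros in neither 2.58, with a GC content of 58.6% and 52.7%. The flanks of these 2 groups differed too, at 2.52 and 2.08 words and a GC content of 52.2% and 48.0%. At the centre of the region, where no Ikaros summit is needed, the members had 2.51 and the regions gained without Ikaros 1.69, with a GC content of 52.3% and 43.0%. Their flanks had 2.37 and 1.62, so each centre was close to its own flank and the sets differed in the flanks too.

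**Figure D5:**
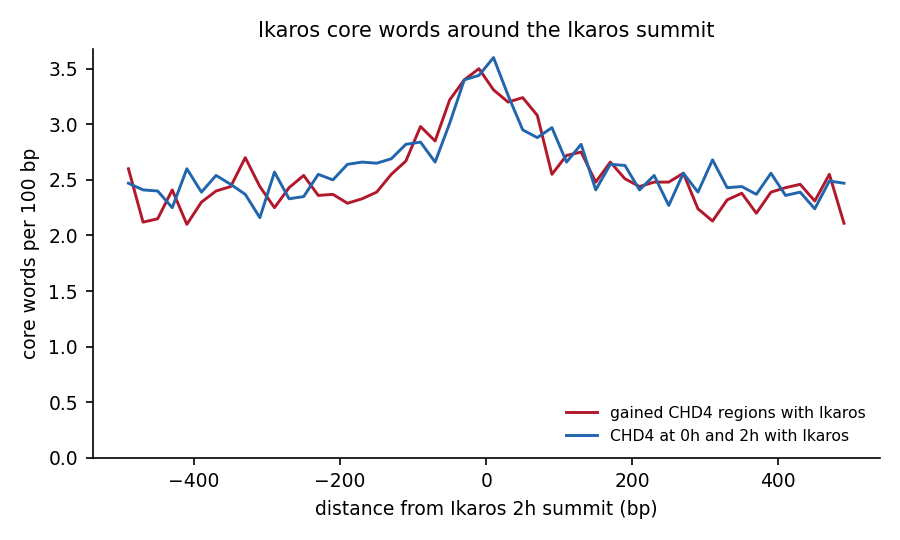
Core words per 100 bp in 20 bp steps against distance from the Ikaros 2 h summit, for the gained regions (red) and the regions with CHD4 at 0 h and 2 h and Ikaros at 2 h (blue). At the gained regions the density is 3.50 just before the summit, with both sets peaking at the summit and running near each other at all distances.

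Longer words were searched on both strands of the same windows. GGGAA, which overlaps both core words, was in 62.4% of members and 59.9% of all Ikaros regions, and TGGGAA, which contains it, in 22.1% of each. The ETS promoter word CCGGAA was in 16.8% of members, 13.4% of all Ikaros regions and 9.88% of the regions with CHD4 at 0 h and 2 h and Ikaros at 2 h. The PU.1-type word GAGGAAGT was in 2.58%, 4.33% and 5.73%, the RUNX word TGTGGT in 17.7%, 18.1% and 22.2%, the E-box CAGCTG in 16.4%, 17.2% and 22.1%, the EBF1 word CCCNNGGG in 16.9%, 18.1% and 21.0%, and the KLF and SP word GGGCGG in 22.7%, 22.3% and 15.6%. The members were close to all Ikaros regions for most words, and CCGGAA showed the widest gap in percentage points. In flanking windows 300 to 500 bp from the summit CCGGAA was in 8.56% for members and 5.93% for all Ikaros regions, so the members were higher there too. TGGGAA was in 15.3% of the flanking windows of members and 17.9% of those of all Ikaros regions, and in the regions with CHD4 at 0 h and 2 h it was in 20.3% of summit and 20.4% of flanking windows. A match says only that the letters are present in the window.

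The Ikaros and CHD4 peaks did not coincide base by base. The Ikaros summit lay inside the CHD4 2 h peak of replicate 1 at 337 members (62.1%) and of replicate 2 at 407 (75.0%), and its median distance from the region's centre was 307 bp. The summits of the 2 Ikaros replicates were a median of 137 bp apart and within 50 bp at 151 members, beside the 201 bases of the window.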

How the data were processed

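ChIP-seq of HA-Ikaros, CHD4 and H3K27ac was done on B3 cells fixed with disuccinimidyl glutarate and formaldehyde, in 24 libraries, 2 per target and time. The 8 inputs were not analysed here separately. The submitters' processing notes name Bowtie2 2.4.2, Picard 2.23.7, deepTools 3.5.0, MACS2 2.2.7.1 and the mm10 build. The authors called narrow peaks for Ikaros and H3K27ac and broad peaks for CHD4, while for 30 min the settings are not given in the sources used here. Each deposited list gives positions, a display score (not used), a fold enrichment (ratio) over local background, and −log10 p and −log10 q values, with no reads per region, so no count test was possible.

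The members and gene lists were chosen with earlier results of these data known. CHD4 peaks of all 8 lists were merged where they touched, and the highest fold of a library was taken at each region. H3K27ac peaks were merged likewise, and log2 fold was fitted with limma 3.58.1 (R 4.3.3) on the 14715 regions in all 8 lists, with time as a factor, after checks on simulated data. The fit across lists rests on the fold as deposited, which moves with depth and background, hence the centring on each library's median. Coverage recovered from fold and p was 1.98 to 3.59 fragments per base for Ikaros (3.59 and 3.13 at 0 h, 2.85 and 2.12 at 2 h) and 3.75 to 4.34 for H3K27ac, and is unknown for CHD4. Positions and nearest genes came from GENCODE M21 and sequence from RefSeq GRCm38. Named members were the 6 with the highest CHD4 rank at 2 h, up to 6 lower and 6 higher in H3K27ac at an adjusted p under 0.05, the 4 with the highest CHD4 rank among those in both 30 min lists, and up to 4 per gene list by H3K27ac p. Alternatives covered peak thresholds, list length, overlap, merging, scaling and leaving out each library.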

Additional observations from a re-analysis of the deposited data

How the results depend on the processing

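The number of regions meeting the rule was 48 with −log10 q of at least 3, 334 with a fold of at least 3 and 101 with lists of equal length, each applied to the CHD4 and Ikaros lists together, and leaving out 1 library gave 603 to 2012, with 1375 without CHD4 0 h replicate 2, 2012 without CHD4 2 h replicate 1 and 878 without CHD4 2 h replicate 2. The first 3 of these keep fewer peaks by construction. With −log10 q of at least 3, Ikaros was in both lists at 58.3% (0 h), 70.8% (30 min) and 97.9% (1 h) of the 48, and 39.6% were within 1 kb of a TSS. With lists of equal length CHD4 was in both 30 min lists at 31.7%, Ikaros in both 1 h lists at 71.3%, 55.4% were within 1 kb of a TSS and core words stood at 3.51 per 100 bp. Reading 1 list of a time in place of both gave 25.6% to 33.9% (CHD4, 30 min), 46.2% to 56.2% (CHD4, 1 h), 46.0% to 51.6% (Ikaros, 0 h), 43.3% to 70.3% (Ikaros, 30 min) and 84.0% to 90.4% (Ikaros, 1 h). The TSS share was 73.8% within 3 kb and 57.8% for protein-coding TSSs, and core words stood at 3.24 per 100 bp within 50 bp of the summit.

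For H3K27ac, leaving out centring turned the median difference at the members to -0.29 at 2 h and -0.18 at 1 h, and gave 5 lower (*Abt1*, *Arid1a*, *Cast*, *Endod1* and *Ints3*) and 0 higher at 2 h, where all regions gave 421 lower and 5 higher against 33 and 27 with centring. The counts at 2 h were 0 and 0 on percentile ranks, in a fit on the 4 libraries of the contrast, for the members under lists of equal length and when any 1 of the 8 libraries was left out (0 to 0 in each direction). One row per CHD4 region, added after seeing the data, gave 4 higher and 0 lower at 2 h and 1 higher at 1 h. *Nfe2l2*, read at different summits before and after induction, was among the 4 and was the 1 at 1 h. Replicate numbers did not pair the libraries, with correlations of same-numbered deviations between -0.00853 and 0.0639, and with the replicate number as a block 0 regions were lower and 1 higher at 2 h. The adjusted p over 15 alternatives ran from 0.00638 to 0.213 for *Ints3* (3 under 0.05) and from 0.0340 to 0.192 for *Tcf12* (4 under 0.05). The cause of these shifts was not tested. CHD4 depth is unknown, so a missing CHD4 peak at 0 h is a missing call and not a measured absence.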

Other observations

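Chromosome X held 1 of the 543 gained regions with Ikaros (0.184%) and 8 of the 142 gained without Ikaros (5.63%), beside 0.755% of all CHD4 regions and 0.476% of the Ikaros regions in both 2 h lists. The regions with CHD4 at 0 h and 2 h and Ikaros at 2 h had 3 of 1012 there (0.296%), so the low share was not particular to the members.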
